A study of Bos taurus with 13 samples.

Results

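Whole blood of lactating dairy cows was examined for 10 genes of fatty acid oxidation, *PDK4*, *CPT1A*, *CPT2*, *SLC25A20*, *ACADVL*, *ACADM*, *HADHA*, *HADHB*, *ACAA2* and *ETFDH*. They were taken by gene name from the count tables, which held 16095 named genes, and all 10 were present and passed the filter on low counts that 11033 genes passed. The cows were Italian Red Pied by the labels, and the study describes clinically healthy lactating cows of a commercial farm. They had been ranked on milk cortisol, and 13 RNA libraries were analysed here, 7 of cows with high cortisol (replicates 1 to 7) and 6 of cows with low cortisol (replicates 8 to 13). The study chose 10 cows for each group, and libraries of other cows were not analysed here. The labels name no treatment, and the groups are the ends of a natural range. Cortisol was measured in milk and not in the blood that was sequenced, and no cortisol value of a single cow was used. RNA came from tail vein blood kept in an RNA preservative, and globin transcripts were not removed.

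Long-chain fatty acids are activated to acyl-CoA and cross the inner mitochondrial membrane as carnitine esters. In the matrix, acyl-CoA dehydrogenases, the trifunctional protein and thiolases shorten the chain by repeated rounds of beta-oxidation, and the electrons pass through electron transfer flavoprotein to ubiquinone. *PDK4* encodes a kinase that switches off the pyruvate dehydrogenase complex, so that less glucose carbon enters the citric acid cycle while fat is burned. *PDK4* and *CPT1A* are classical target genes of the fatty acid sensors of the PPAR family, and *PDK4* is also induced by glucocorticoids and by fasting in muscle and liver. In white blood cells, fatty acid oxidation is known as a fuel route of memory and regulatory lymphocytes and of some macrophages.

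Counts assigned to named genes ranged from 12198355 to 23709740 in the 7 high libraries and from 11045599 to 28124575 in the 6 low ones. At these depths 3 counts, the most that a count of 0 leaves possible, are 0.107 to 0.272 CPM (counts divided by the scaled library total), a limit for counting error only. The haemoglobin genes *HBB*, *HBG*, *HBM* and *HBQ1* together took 0.0282 to 0.815% of the counts in high-cortisol cows and 0.0114 to 0.0552% in low-cortisol cows. No other globin gene was in this sum, called the haemoglobin share below, so it can lie below the whole share. On the first principal component of log2 CPM over all genes tested, which held 29.0% of the variance, high replicate 4 scored 62.4, while the other cows scored between -31.3 and 19.1. High replicate 4 therefore stood apart from the other libraries, and low replicate 13 lay at the opposite end. Results of the members that rest on either cow are therefore given with and without it. Correlations of members with single other genes were not computed without these cows.

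All 10 genes were transcribed in every cow, and together they took 0.0858 to 0.0988% of the named counts. The lowest count of any member in any cow was 92, for *PDK4*, against a limit of 3 counts. Compared per length of exon, as CPM divided by the exon length in kilobases (RPKM), *ACADVL* was the most abundant with a median of 139 RPKM over the 13 cows. It encodes the very-long-chain acyl-CoA dehydrogenase, which starts each round of oxidation of long chains, and only 6.29% of the genes tested had a higher median RPKM. *ACAA2*, a mitochondrial thiolase that cleaves off acetyl-CoA, followed with 66.9 RPKM. The alpha and beta subunits of the trifunctional protein, *HADHA* and *HADHB*, stood at 63.3 and 59.9 RPKM. *SLC25A20*, the carrier that exchanges acylcarnitine for carnitine, had a median of 35.8 RPKM.

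Below these came *ACADM*, the medium-chain acyl-CoA dehydrogenase, at 17.3 RPKM and *CPT2*, which releases acyl-CoA from carnitine in the matrix, at 17.1 RPKM. *CPT1A*, the acyltransferase of the outer membrane that sets the rate of entry, had 11.5 RPKM. *ETFDH*, which hands electrons to ubiquinone, had 6.05 RPKM and *PDK4* was the lowest at 4.40 RPKM, a level that 71.3% of the genes tested exceeded. This order held in all 13 cows at the steps from *ACADVL* to *ACAA2*, from *HADHB* to *SLC25A20* and from *SLC25A20* to *ACADM*, where the ranges over the cows did not overlap. At the other steps the ranges overlapped. *ACAA2* was above *HADHA* in 9 of 13 cows, *HADHA* above *HADHB* in 8 and *ACADM* above *CPT2* in 7, so these neighbours in the order did not differ beyond their spread. *CPT2* was above *CPT1A* in 12 cows, *CPT1A* above *ETFDH* in 11 and *ETFDH* above *PDK4* in 12.

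The positions are those of the count tables, on the UMD3.1 build, and each member is counted over its exons. *PDK4* lies on chromosome 4 from 12754202 to 12767677 on the minus strand, and *CPT1A* on chromosome 29 from 46822027 to 46862300 on the minus strand. *CPT2* lies on chromosome 3 from 93601359 to 93625434 and *ACADM* on the same chromosome from 69344157 to 69382504, both on the minus strand. *SLC25A20* lies on chromosome 22 from 51617498 to 51652558 on the plus strand, and *ACAA2* on chromosome 24 from 49908126 to 49942827 on the minus strand. These 6 genes had no named neighbour within 2000 bases.

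*HADHA* (chromosome 11, 73246485 to 73288803, plus strand) and *HADHB* (73215424 to 73246167, minus strand) start head to head, 317 bases apart. *ACADVL* (chromosome 19, 27568181 to 27573378, plus strand) holds bta-mir-324 on the opposite strand, which had 1 to 19 counts per cow, and *DVL2* lies 648 bases away. *ETFDH* (chromosome 17, 41262754 to 41307126, minus strand) lies between *PPID*, 343 bases away, and *C4orf46*, 251 bases away. No exon of a member overlapped an exon of any of these neighbours. The counting used no strand, so reads that ran past an annotated end could not be assigned by strand.

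The cows differed most in *PDK4*. In the high group *PDK4* ranged from 8.82 to 34.9 CPM with a median of 18.4 CPM, and in low-cortisol cows from 5.53 to 18.2 CPM with a median of 16.1 CPM. The highest cow was high replicate 4 and the lowest was low replicate 13, 6.32-fold apart, and the other 11 cows lay between 8.82 and 20.7 CPM. The SD of *PDK4* over the 13 cows was 0.67 on the log2 scale, against a median of 0.31 over all genes tested. Only 8.95% of all genes, and 3.52% of the 1533 genes within 0.5 log2 units of its mean level, varied more.

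Of the genes that bring fatty acids into the matrix, *CPT1A* spread most widely. It ranged from 17.7 to 62.9 CPM in high-cortisol cows (median 30.3 CPM) and from 20.3 to 31.2 CPM in low-cortisol cows (median 27.9 CPM). High replicate 4 was far above the next cow, at 62.9 against 32.2 CPM, and the rest of the high group overlapped the low group. The carrier *SLC25A20* ranged from 48.6 to 76.7 CPM in high-cortisol cows (median 67.0 CPM) and from 52.3 to 70.6 CPM in low-cortisol cows (median 61.6 CPM). *CPT2* ranged from 35.2 to 52.5 CPM in high-cortisol cows (median 37.7 CPM) and from 34.3 to 48.1 CPM in low-cortisol cows (median 43.5 CPM). The ratio of highest to lowest cow was 3.56 for *CPT1A*, but 1.58 for *SLC25A20* and 1.53 for *CPT2*.

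The acyl-CoA dehydrogenases differed from each other in spread. *ACADM* ranged from 23.7 to 51.3 CPM in high-cortisol cows (median 39.4 CPM) and from 22.5 to 49.1 CPM in low-cortisol cows (median 33.9 CPM). *ACADVL*, in contrast, ranged from 203 to 359 CPM in high-cortisol cows (median 296 CPM) and from 260 to 347 CPM in low-cortisol cows (median 312 CPM). The cow lowest in *ACADVL* was high replicate 4, the one with the highest *ACADM*. The SD of *ACADM* was 0.38 on the log2 scale and that of *ACADVL* 0.23.

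Of the enzymes of the later steps, *HADHA*, *HADHB* and *ACAA2* were the steadiest members. *HADHA* ranged from 131 to 203 CPM in high-cortisol cows (median 175 CPM) and from 164 to 209 CPM in low-cortisol cows (median 170 CPM), and *HADHB* from 122 to 168 CPM (median 138 CPM) and from 130 to 182 CPM (median 148 CPM). *ACAA2* ranged from 92.6 to 116 CPM in high-cortisol cows (median 105 CPM) and from 98.4 to 123 CPM in low-cortisol cows (median 108 CPM). With an SD of 0.12 on the log2 scale *ACAA2* varied least of the members, and 96.6% of all genes tested varied more. For *HADHA* and *HADHB* 89.8 and 89.3% of all genes varied more. Among genes within 0.5 log2 units of the mean level of each, 76.6% varied more than *HADHA*, 75.0% more than *HADHB* and 91.4% more than *ACAA2*. *ETFDH* ranged from 11.8 to 17.6 CPM in high-cortisol cows (median 13.3 CPM) and from 11.6 to 19.5 CPM in low-cortisol cows (median 13.8 CPM), and the groups overlapped for each of these 4 genes. The SD of *ETFDH* was larger, 0.24 on the log2 scale, beside 0.23 for *ACADVL*.

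**Figure D1:**
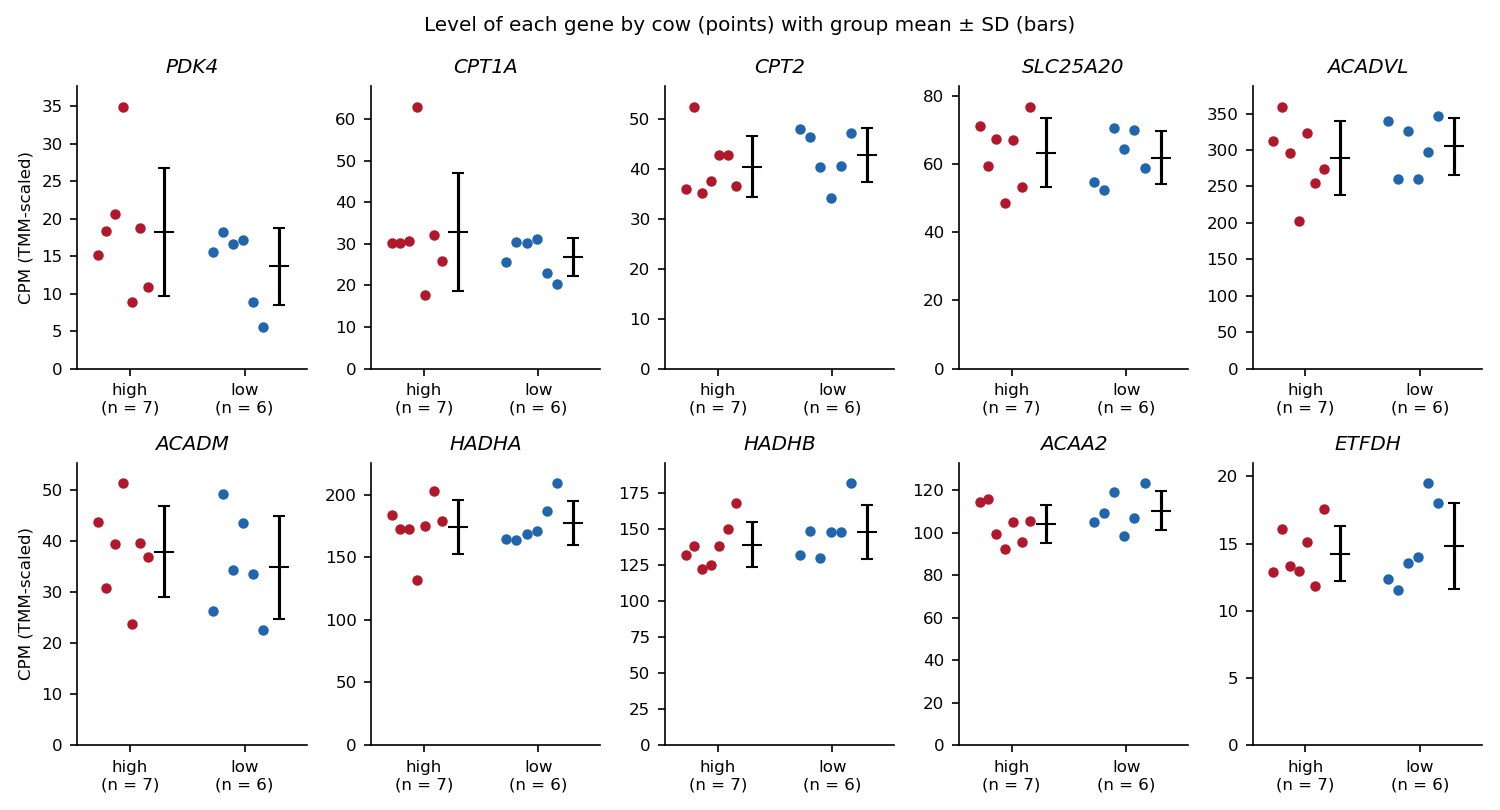
Level of each member in each cow, in CPM on linear axes that start at 0, with the 7 high-cortisol cows and the 6 low-cortisol cows side by side and the mean and SD of each group. The groups overlap for all 10 genes, and high replicate 4 lies apart in *PDK4* (34.9 CPM) and *CPT1A* (62.9 CPM).

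Whether cows with high milk cortisol carried other levels of these transcripts than cows with low cortisol was asked with edgeR's quasi-likelihood test over all genes tested. No member passed an adjusted p of 0.05, and neither did any gene, a share of 0% (smallest adjusted p = 0.998). At an unadjusted p below 0.05 stood 0 of the 10 members, beside 2.09% of all genes (231 of 11033). A p of this kind sets the difference of the groups against the spread between cows. In bulk blood fewer cells of a type and less RNA per cell cannot be told apart.

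*PDK4* averaged 18.2 ± 8.54 CPM (SD, n = 7) in high-cortisol cows and 13.6 ± 5.18 CPM (SD, n = 6) in low-cortisol cows. Its log2 fold change was 0.41 (SE 0.31) with an edgeR adjusted p = 0.998, and 4 of the 7 high cows lay above the low median. The 95% interval of the difference ran from 0.840-fold to 2.11-fold, a range that holds decreases as well as increases. The log2 fold change was 0.17 without high replicate 4 and 0.25 without low replicate 13. An exact two-sided permutation test of mean log2 CPM over all 1716 splits into 7 and 6 cows, whose smallest possible p is 0.000583, gave p = 0.298.

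*CPT1A* averaged 32.8 ± 14.2 CPM (SD, n = 7) in high-cortisol cows and 26.8 ± 4.54 CPM (SD, n = 6) in low-cortisol cows. The log2 fold change was 0.29 (SE 0.22, edgeR adjusted p = 0.998, exact permutation p = 0.438), with 5 of 7 high cows above the low median and a 95% interval from 0.881-fold to 1.70-fold. It was 0.05 without high replicate 4. The remaining 8 members had smaller differences, from -0.09 for *HADHB* to 0.12 for *ACADM* on the log2 scale. Single cows moved these small values by more than 1.5 times. *ACADM* was at 0.03 without high replicate 4, 0.02 without low replicate 13 and 0.24 without low replicate 9, and *HADHB* at -0.02 without low replicate 13. Over the 13 omissions *CPT2* lay between -0.15 and -0.04, *ACADVL* between -0.13 and -0.01 and *ACAA2* between -0.12 and -0.05, while *HADHA*, *ETFDH* and *SLC25A20* took either sign. The 95% intervals of these 8 reached down to 0.770-fold (*ETFDH*) and up to 1.44-fold (*ACADM*). In direction 4 members were positive and 6 negative, and the median of the 10 log2 fold changes was -0.04, beside 0.01 for all genes. The sign of that median rested on single cows, since it was 0.01 without high replicate 4 (5 members positive), 0.01 without low replicate 12 (5 positive) and 0.02 without low replicate 13 (6 positive), and it was 0.03 with the haemoglobin share as a covariate (7 positive). The exact permutation p of these 8 ranged from 0.233 for *ACAA2* to 0.812 for *SLC25A20*.

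Across the cows the members did not vary as 1 block. *PDK4*, *CPT1A* and *ACADM* were positively correlated with each other, with high replicate 4 the highest cow in all 3. Over 13 cows, *PDK4* and *CPT1A* had a Pearson r of 0.890 in log2 CPM (permutation p = 8.0e-05, adjusted p = 0.0036 over the 45 pairs of members) and a Spearman rho of 0.874 (permutation p = 0.00017, adjusted p = 0.00765). Without high replicate 4 and low replicate 13, the cows farthest from the median of *PDK4*, r was 0.879. Within the 7 high cows r was 0.943 and within the 6 low cows 0.946. Among all 11032 other genes tested, *CPT1A* ranked 67th by r with *PDK4*.

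The other pairs among these 3 genes were also positive. By rank among the 11032 other genes tested, *ACADM* was 775th by r with *PDK4*, and *CPT1A* 989th by r with *ACADM*. *CPT1A* and *ACADM* had r = 0.782 (rho 0.868, permutation p = 0.00029 and 0.00038, adjusted p = 0.00652 and 0.00855), and r = 0.754 without the 2 cows farthest in *CPT1A*. *PDK4* and *ACADM* had r = 0.744 (permutation p = 0.00344, adjusted p = 0.031) and rho = 0.648 (permutation p = 0.0193, adjusted p = 0.145), and r was 0.501 without high replicate 4 and low replicate 13. Leaving out high replicate 4 alone brought that pair to r = 0.675 (adjusted p = 0.101) and leaving out low replicate 13 alone to r = 0.630 (adjusted p = 0.154), so its call rests on these cows. *PDK4* with *CPT1A* and *CPT1A* with *ACADM* kept an adjusted p below 0.05 when any of the 13 cows was left out.

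**Figure D2:**
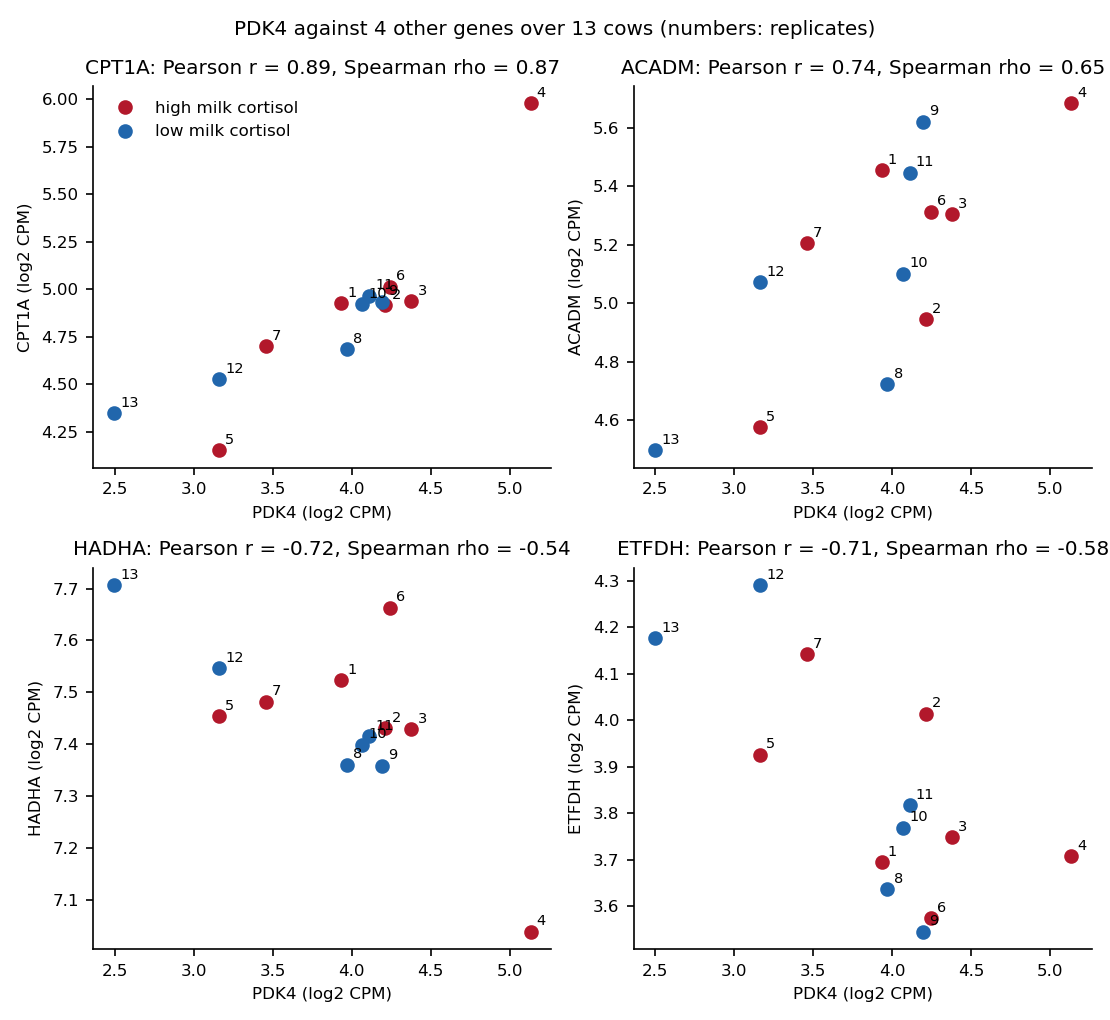
Log2 CPM of *CPT1A*, *ACADM*, *HADHA* and *ETFDH* against log2 CPM of *PDK4* in the 13 cows, numbered by replicate and coloured by cortisol group, with Pearson r and Spearman rho above each panel. *CPT1A* and *ACADM* increase with *PDK4* and *HADHA* and *ETFDH* decrease, with high replicate 4 at the right end and low replicate 13 at the left end of each panel.

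*PDK4* was negatively correlated with the other 7 members. With the trifunctional subunits r was -0.723 for *HADHA* (rho -0.538, permutation p = 0.00814 and 0.0611, adjusted p = 0.0407 and 0.185) and -0.714 for *HADHB* (rho -0.50, permutation p = 0.00656 and 0.0848, adjusted p = 0.0369 and 0.214). Without high replicate 4 and low replicate 13 the values were -0.196 and -0.388, and both relations rest on those 2 cows. With *ETFDH* r was -0.706 (rho -0.577, permutation p = 0.00605 and 0.0428, adjusted p = 0.0369 and 0.185), and -0.708 without the same 2 cows. The *ETFDH* relation was as strong without the extreme cows, whereas ranks alone did not bring it past the threshold. Among the others, r with *PDK4* was -0.587 for *ACADVL*, -0.575 for *ACAA2*, -0.453 for *SLC25A20* and -0.234 for *CPT2*, with rho of -0.511, -0.538, -0.467 and -0.154 and adjusted permutation p of r from 0.132 to 0.512.

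The calls for *HADHA*, *HADHB* and *ETFDH* were close to the threshold. The *HADHA* call was lost, with r from -0.735 to -0.554 and adjusted p from 0.0511 to 0.231, when high replicate 3, 4 or 7 or low replicate 9, 10, 11, 12 or 13 was left out. The *HADHB* and *ETFDH* calls were lost when high replicate 3, 4 or 7 or low replicate 10, 11, 12 or 13 was left out, with r from -0.731 to -0.522 for *HADHB* (adjusted p from 0.0507 to 0.265) and from -0.744 to -0.632 for *ETFDH* (adjusted p from 0.0517 to 0.154).

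Among the other members the acyl-CoA dehydrogenases ran against each other. *ACADVL* and *ACADM* had r = -0.785 (rho -0.808, permutation p = 0.00118 and 0.00141, adjusted p = 0.0169 and 0.0211), and r = -0.780 without the 2 cows farthest in *ACADVL*, high replicates 2 and 4. *ACADVL* was positively correlated with the thiolase gene *ACAA2*, with r = 0.777 (rho 0.747, permutation p = 0.0015 and 0.00482, adjusted p = 0.0169 and 0.0434) and r = 0.660 without those cows. Leaving out high replicate 4 alone ended both calls (r = -0.752, adjusted p = 0.0667, and r = 0.694, adjusted p = 0.101). Among the 11032 other genes tested, *ACAA2* ranked 922nd by r with *ACADVL*, and *ACADVL* 152nd by r with *ACAA2*. *CPT1A* and *ACADVL* had r = -0.733 (rho -0.747, permutation p = 0.00628 and 0.00452, adjusted p = 0.0369 and 0.0434), but r = -0.425 without high replicates 4 and 5, the cows farthest in *CPT1A*, so that relation rests on them. Its call was lost without high replicate 3, 4 or 6 or low replicate 9, 11, 12 or 13, with r from -0.745 to -0.425 and adjusted p from 0.0511 to 0.432.

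*HADHA* and *HADHB*, the head-to-head genes for the subunits of 1 enzyme complex, had r = 0.635 (rho 0.571, permutation p = 0.0226 and 0.0454, adjusted p = 0.0923 and 0.185). Without high replicate 4 and low replicate 13 it was 0.321, and the relation rests on those 2 cows.

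Of the 45 pairs, 9 passed an adjusted permutation p of 0.05 by Pearson r, 4 positive and 5 negative, and 5 by Spearman rho. The weakest of the 9 had an absolute r of 0.706, a size that 10 of the 45 pairs (22.2%) reached, beside 8.07% of all 60858028 pairs of genes tested. The median r was 0.0613. In 9 pairs (20%) r was above 0.5, beside 13.3% of all pairs of genes, and in 12 (26.7%) it was below -0.5, beside 13.1%. Some members correlated widely with other genes, so the background of all pairs is not matched to them. *CPT1A*, *ACADVL* and *ACADM* had r above 0.5 with 25.6, 25.1 and 23.8% of the other genes, and below -0.5 with 24.5, 27.3 and 23.2%. For *CPT2* the shares were 7.70 and 9.35%, and for *HADHB* 8.13 and 5.58%. Grouped after the values had been seen, the 3 pairs within *PDK4*, *CPT1A* and *ACADM* were all positive (r from 0.744 to 0.890), and all 21 pairs between these 3 and the other 7 genes were negative (r from -0.785 to -0.187). Within the other 7, 20 of 21 pairs were positive, the exception being *CPT2* with *SLC25A20* (r = -0.464). Leaving out high replicate 4, the pairs between the 2 sets were negative in 20 of 21 and the pairs within the 7 positive in 16 of 21. The count of called pairs then fell to 2, and it was 4 without low replicate 13 and 5 without high replicate 3, low replicate 11 or low replicate 12.

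**Figure D3:**
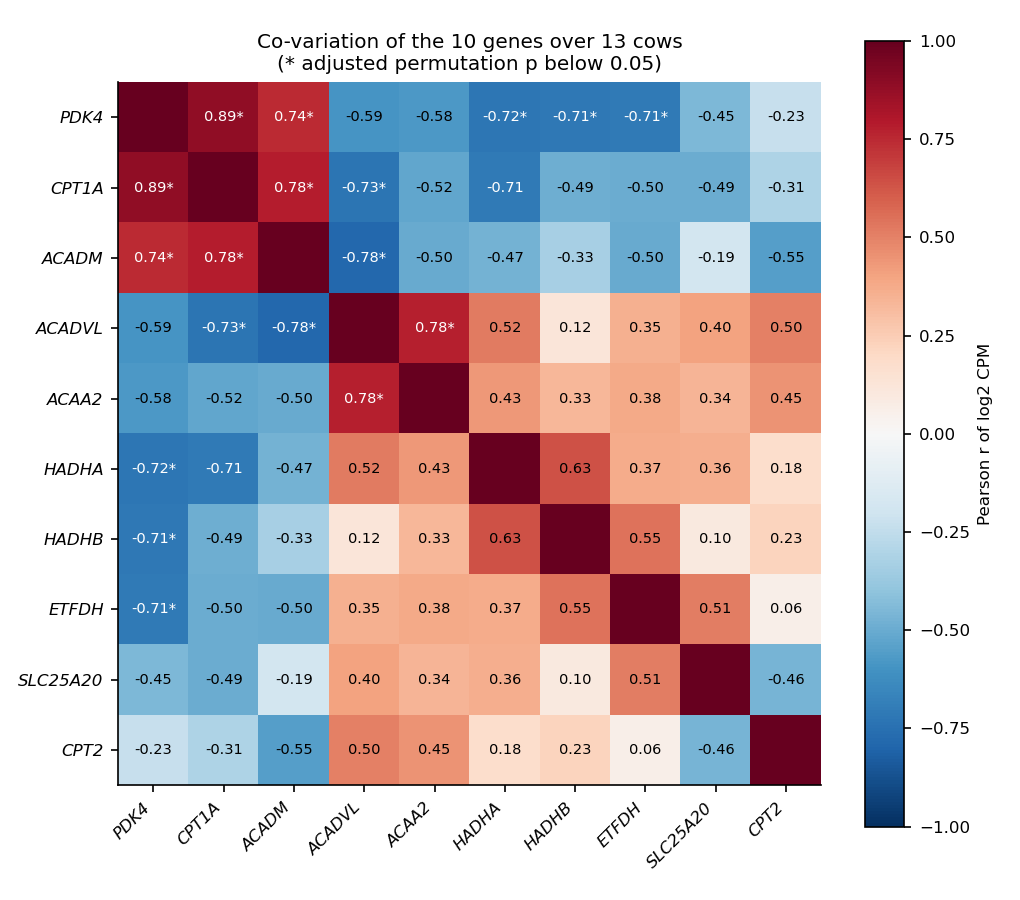
Pearson r of log2 CPM over the 13 cows for each of the 45 pairs of members, on a colour scale from -1 to 1, with an asterisk at the 9 pairs of adjusted permutation p below 0.05. *PDK4*, *CPT1A* and *ACADM* are positive with each other (0.744 to 0.890) and negative with the other 7 genes.

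In sign the same division matched the main axis of variation in the blood transcriptome, and 5 of the 10 members passed the adjusted threshold. The share of all genes tested that would pass was not computed, so this count describes the members without a background. With the first principal component, which the members themselves entered with the other genes, r was 0.911 for *CPT1A*, 0.864 for *ACADM* and 0.796 for *PDK4*, but -0.930 for *ACADVL* and -0.711 for *ACAA2* (rho 0.852, 0.901, 0.714, -0.907 and -0.681). Permutation p of r was 1.0e-04, 3.0e-05, 0.00138, 5.0e-05 and 0.0047, and the p adjusted over 40 relations with library measures was 0.00133, 0.001, 0.0138, 0.001 and 0.0376. By rank the adjusted permutation p was 0.00453, 0.0022, 0.0743, 0.0022 and 0.105, so that *PDK4* and *ACAA2* did not pass by Spearman rho. Without high replicate 4 and low replicate 13 the 5 correlations were 0.709, 0.907, 0.545, -0.844 and -0.450. The remaining 5 members did not pass (r from -0.666 for *HADHA* to -0.339 for *HADHB*). Without the same 2 cows *HADHA* and *HADHB* turned positive, at 0.181 and 0.328. *SLC25A20*, *CPT2* and *ETFDH* stayed negative, at -0.345, -0.320 and -0.449. None of 30 relations with log2 depth, haemoglobin share or the share of counts without a gene name passed an adjusted p of 0.05.

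When log2 CPM was regressed on that component first, a step added after the data had been seen, 3 pairs passed the threshold. *PDK4* and *CPT1A* then had r = 0.660 (adjusted permutation p = 0.127) and *PDK4* and *ACADM* r = 0.184 (adjusted p = 0.892). *PDK4* and *HADHB* had r = -0.779 (adjusted p = 0.0416) and *CPT2* and *SLC25A20* r = -0.856 (adjusted p = 0.0153). The pair *CPT1A* and *ACADVL* changed sign, from r = -0.733 to r = 0.751 (adjusted p = 0.0472). The division into 3 and 7 genes was then lost, with 2 of the 3 pairs within *PDK4*, *CPT1A* and *ACADM* positive, 12 of the 21 pairs between them and the other 7 negative, and 11 of the 21 within the 7 positive.

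The genes most like *PDK4* over the 13 cows were *IPMK* (r = 0.949), *DPY19L3* (0.946), *SLC12A2* (0.945), *C5orf15* (0.940) and *DPY19L1* (0.939). The most opposite were *NLE1* (r = -0.957), *SUCLG1* (-0.951), *TBRG4* (-0.944), *PRDX2* (-0.941) and *IMPDH2* (-0.941). *IPMK* encodes an inositol phosphate kinase and *SLC12A2* a sodium, potassium and chloride cotransporter, while *SUCLG1* encodes a subunit of succinyl-CoA ligase, *PRDX2* a peroxiredoxin and *IMPDH2* an enzyme of guanine nucleotide synthesis. By rank, rho lay between 0.786 (*C5orf15*) and 0.940 (*SLC12A2*) for the 5 most like genes. For the 5 most opposite it lay between -0.940 (*IMPDH2*) and -0.780 (*PRDX2*). These values are descriptions over the same 13 libraries and were not computed without high replicate 4 and low replicate 13. *PDK4* had r above 0.5 with 22.3% of the other 11032 genes and below -0.5 with 21.7%.

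For the other members the 2 most similar genes were as follows. *CPT1A* was closest to *RLF* (r = 0.973) and *CCDC186* (0.962), and *ACADM* to *EXOC6* (0.980) and *STXBP3* (0.979). *ACADVL* was closest to *HPS1* (r = 0.970) and *TCF25* (0.968), and *ACAA2* to *SLC25A3* (0.932), the mitochondrial phosphate carrier, and *U2AF1* (0.913). *HADHA* was closest to *PARP6* (r = 0.921, but rho 0.731) and *TMEM86B* (r = 0.912), and *HADHB* to *CD27* (0.883), a costimulatory receptor of lymphocytes, and *EBPL* (0.883). No member was among the closest genes of another. *SLC25A20* was closest to *ZNF653* (r = 0.900) and *SLAMF7* (0.889), a receptor of cytotoxic and plasma cells, *CPT2* to *SND1* (0.836) and *VDAC1* (0.829), and *ETFDH* to *TYMS* (0.893), the thymidylate synthase, and RNase_MRP (0.859).

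The surrounding pathway was described with 9 further lists. In the comparison of high with low cortisol, 1 gene in the 9 lists had an unadjusted edgeR p below 0.05. This was *VLDLR*, a lipoprotein receptor of the 11 tested PPAR targets outside oxidation, at 18.7 ± 5.14 CPM (SD, n = 7) in high-cortisol and 26.5 ± 5.77 CPM (SD, n = 6) in low-cortisol cows (log2 fold change -0.50, SE 0.19, exact permutation p = 0.0309, edgeR adjusted p = 0.998). No gene of the lists passed the adjusted threshold, and the background at the unadjusted threshold was 2.09%. The median log2 fold change of that list was -0.06.

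The lists closest to the members held no gene at an unadjusted p below 0.05. Of the 8 other carnitine shuttle genes tested, those of smallest edgeR p were *ALDH9A1*, an enzyme of carnitine synthesis (log2 fold change -0.17, SE 0.10, exact permutation p = 0.0635), and *CPT1C* (-0.21, SE 0.20, exact p = 0.247). Of the 16 other genes of mitochondrial beta-oxidation they were *ACAD9* (-0.26, SE 0.15, exact permutation p = 0.124) and *ECI2* (-0.31, SE 0.28, exact p = 0.257). Of 11 genes of fatty acid uptake and activation they were *FABP3* (-0.24, SE 0.18) and *ACSL5* (-0.16, SE 0.13), and of 11 genes of peroxisomal oxidation *EHHADH* (0.35, SE 0.22) and *ABCD3* (0.23, SE 0.22), with exact permutation p from 0.216 to 0.477. The medians of these 4 lists lay between -0.09 and 0.01 on the log2 scale.

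Around *PDK4* itself, 0 of 12 genes of the pyruvate dehydrogenase complex, its kinases and phosphatases stood at an unadjusted p below 0.05. *PDP1*, a phosphatase that reverses the action of *PDK4*, was at 5.15 ± 3.35 CPM (SD, n = 7) in high-cortisol and 3.20 ± 1.01 CPM (SD, n = 6) in low-cortisol cows (log2 fold change 0.67, SE 0.34, exact permutation p = 0.122). Its highest level, 12.5 CPM, was that of high replicate 4. *PDK3* was at -0.20 (SE 0.14, exact permutation p = 0.145). Of 20 regulators of fatty acid oxidation, those of smallest edgeR p were *LPIN1* (log2 fold change 0.52, SE 0.25, exact permutation p = 0.0641) and *NRIP1* (0.65, SE 0.33, exact p = 0.146). Both were highest in high replicate 4, at 8.81 and 17.0 CPM. None of the 20 stood at an unadjusted p below 0.05. The same held for 9 genes of fatty acid synthesis, led by *ELOVL6* (-0.34, SE 0.22, exact permutation p = 0.107) and *FADS1* (-0.20, SE 0.16, exact p = 0.223). It also held for 13 glucocorticoid-induced genes, led by *DUSP1* (-0.28, SE 0.16, exact permutation p = 0.20) and *ZBTB16* (0.58, SE 0.34, exact p = 0.0804). The medians of these 4 lists lay between -0.04 and 0.08.

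**Figure D4:**
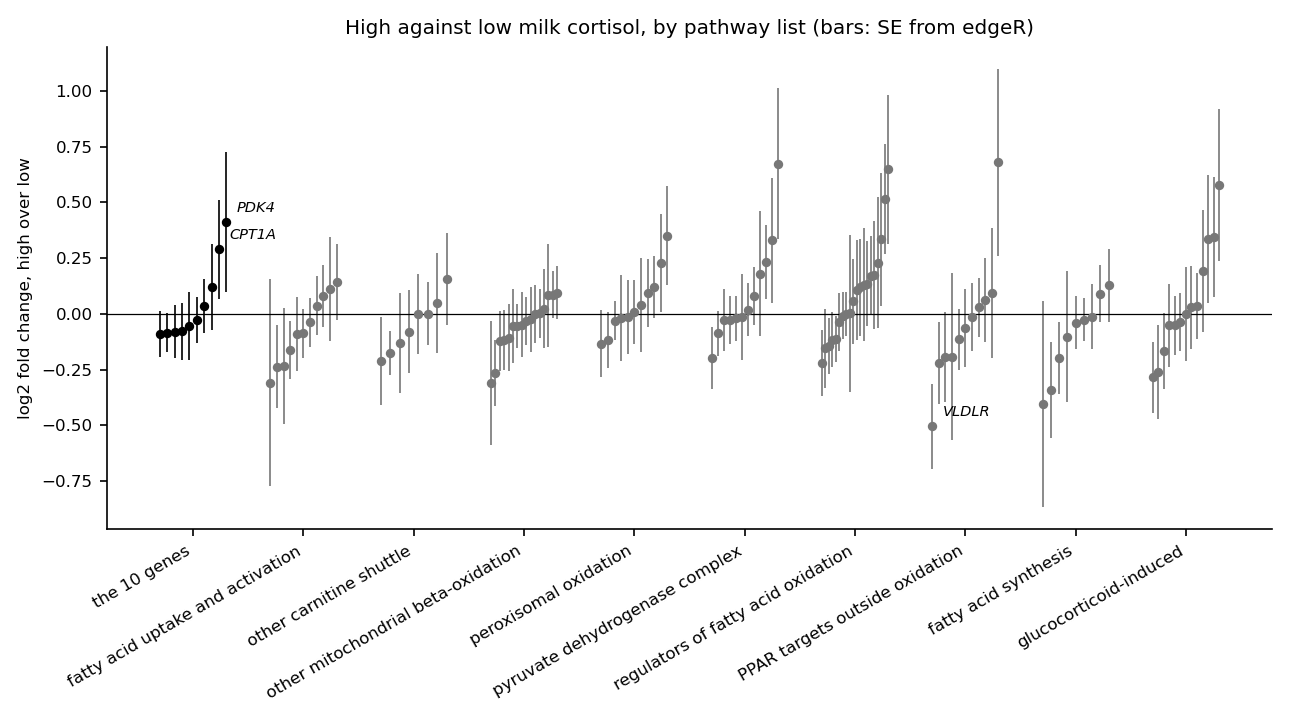
Log2 fold change of high over low cortisol for the 10 members (black) and for the tested genes of 9 further lists (grey), ordered by value within each list, with bars of 1 SE from edgeR. *PDK4* (0.41) and *CPT1A* (0.29) are the highest members, and *VLDLR* (-0.50) is the lowest of all genes shown.

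Variation between cows was described for the same lists by their correlation with *PDK4*, without a test. Of the 20 regulators, 9 had r above 0.5 with *PDK4* and 2 below -0.5, beside 22.3 and 21.7% of all genes. The highest was *PRKAA1* (r = 0.870), a catalytic subunit of the energy-sensing kinase AMPK, followed by the glucocorticoid receptor gene *NR3C1* (0.866), and *PPARA* was at 0.711. The 2 below -0.5 were *RXRB* (-0.766) and *PRKAG1* (-0.666), another AMPK subunit gene. Of further AMPK, PPAR and RXR genes in the list, *PPARD* was at -0.286, *PRKAB1* at -0.229, *PPARG* at 0.082 and *RXRA* at 0.105. All these genes were named after their values had been seen. Like *PDK4*, *NR3C1* and *PPARA* were highest in high replicate 4 (45.2 and 9.33 CPM). Of the 16 other genes of mitochondrial beta-oxidation, 0 had r above 0.5 and 6 below -0.5, the lowest being *ACAD9* (-0.762).

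Among the pyruvate dehydrogenase genes 4 of 12 had r above 0.5 with *PDK4*, the highest being *PDP1* (0.762), and 3 below -0.5, the lowest being *MPC2*, a subunit of the mitochondrial pyruvate carrier (-0.770). Among the glucocorticoid-induced genes 5 of 13 had r above 0.5, with *ANXA1* (0.700) the highest, and 1 below -0.5, *PER1* (-0.563). None of the 11 PPAR targets outside oxidation passed 0.5 in either direction. In each of these lists the values share the 13 libraries and the principal component described above, and they are given as descriptions. None of the correlations of list genes with *PDK4* was computed without high replicate 4 or low replicate 13.

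Blood is a mixture of cells, so each member was set against scores of 9 lists of cell type markers. No relation of the 90 passed an adjusted permutation p of 0.05, and the smallest was 0.170. The largest correlation was that of *PDK4* with the monocyte score, with r = 0.717 (permutation p = 0.0072, adjusted p = 0.170) and rho = 0.819 (permutation p = 0.00091, adjusted p = 0.0819). Without high replicate 7 and low replicate 13, the cows farthest in the score, r was 0.814, and it was 0.760 within high-cortisol and 0.855 within low-cortisol cows. Leaving out high replicate 7 alone gave r = 0.866 with an adjusted p of 0.0171, the 1 relation that passed in any of the 13 omissions.

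Relations of other members with the lists also stayed above the adjusted threshold. *HADHB* had r = 0.708 and rho = 0.604 with the T cell score (permutation p = 0.00635 and 0.0327, adjusted p = 0.170 and 0.368), and r = 0.615 without the 2 cows farthest in the score. *ETFDH* had r = 0.700 and rho = 0.511 with the plasma cell score (permutation p = 0.00773 and 0.0769, adjusted p = 0.170 and 0.461), but r = 0.330 without the 2 farthest cows, high replicate 7 and low replicate 12, so that relation rests on them. *SLC25A20* had r = 0.695 with the cytotoxic and NK score, -0.691 with the monocyte score and 0.679 with the B cell score (rho 0.610, -0.643 and 0.720, adjusted permutation p of r = 0.170 for each). In sign it was thus opposite to *PDK4* for monocytes and B cells, where *PDK4* had r = 0.717 and -0.541. The monocyte markers were all present, 10 of 10 tested, with a summed level of 1988 to 3450 CPM in high-cortisol and 2564 to 3691 CPM in low-cortisol cows. Some scores rested on part of their lists. They held 4 of 11 erythroid, 3 of 6 plasma cell, 3 of 6 eosinophil, 9 of 12 neutrophil and 8 of 10 platelet genes. No marker present in the 9 lists was at 0 in all cows. With log2 CPM regressed on the difference of the neutrophil and T cell scores, 8 pairs of members were called in place of 9, *PDK4* with *CPT1A* had r = 0.877 (adjusted permutation p = 0.0009) and *PDK4* with *ACADM* r = 0.840 (adjusted p = 0.0057). All 21 pairs between *PDK4*, *CPT1A* and *ACADM* and the other 7 genes were negative in that setting too. No such regression was made on the monocyte score or on the other lists, and their part in the variation of the members was not tested.

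The marker scores themselves did not separate the groups after adjustment. The smallest p was that of the erythroid score (high minus low 0.43, exact permutation p = 0.0262, adjusted p = 0.236 over 9 lists), which rested on 4 genes. The 9 erythroid genes present summed to 40.6 to 318 CPM in high-cortisol and 28.0 to 73.5 CPM in low-cortisol cows. The other 8 lists had exact permutation p from 0.164 (neutrophil) to 0.988 (monocyte). The neutrophil markers summed to 4275 to 8952 CPM in high-cortisol and 6619 to 9334 CPM in low-cortisol cows.

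**Figure D5:**
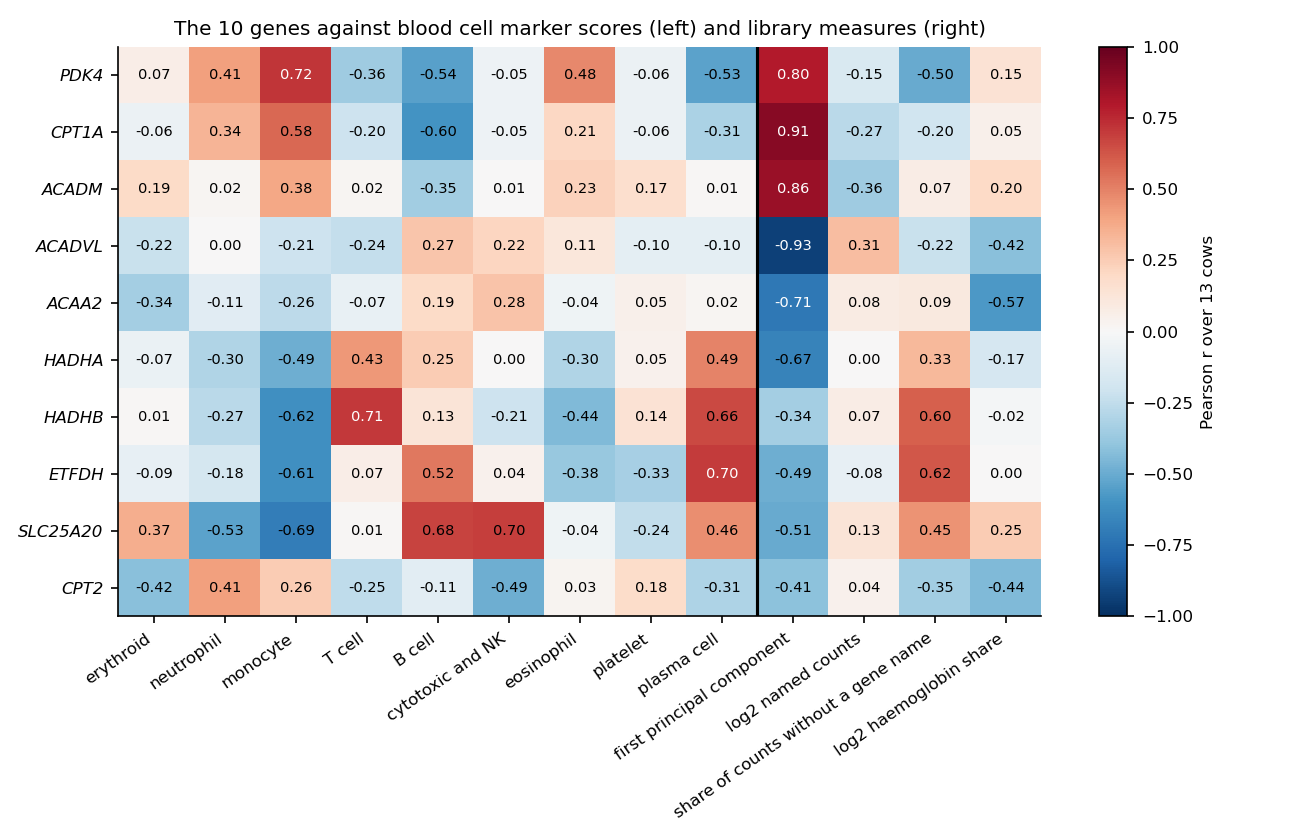
Pearson r over the 13 cows between log2 CPM of each member and the scores of 9 lists of blood cell markers (left of the line) and 4 library measures (right of it), on a colour scale from -1 to 1. Among the marker lists the strongest value is *PDK4* with monocytes (0.717), while the first principal component reaches 0.911 with *CPT1A* and -0.930 with *ACADVL*.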

How the data were processed

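RNA of whole blood from 13 cows was analysed. The deposited values are raw counts of reads per gene name, which the authors did not normalize. The file headers give featureCounts 1.4.6-p3 over exons grouped by gene name, with UMD3.1 gene models (Ensembl release 88) and without options for strand, pairs or multiple hits, whereas the processing notes name STAR 2.7.3, Subread 1.6.5 and another build (ARS-UCD1.2). A folder name in the headers contains the word goat, while the labels give cattle, and the animal numbers in the headers are not those in the tables' own names. Samples were assigned by the repository's record of each table. Groups are from the labels. The counts without a gene name, 13.9 to 16.7% per cow, were left out. No library was identical to another.

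CPM, RPKM and log2 CPM (prior count 2) were computed from the deposited counts after TMM normalization. High and low cows were compared in R 4.3.3 by the robust quasi-likelihood test of edgeR 4.0.16 without covariates, on genes kept by filterByExpr (count 10, total 15), with Benjamini-Hochberg adjustment and a threshold of 0.05, after a trial on simulated counts. Single values had exact permutation tests over 1716 splits, and correlations permutation tests of 100000 resamples, adjusted within 45 pairs of members, 90 relations with marker lists and 40 with library measures. A marker score is the mean of centred log2 CPM over the tested genes of a list. Permutation p after a regression made no allowance for the fitted term. The alternatives were DESeq2 1.42.0, limma-voom (limma 3.58.1), other scalings, filters, prior counts and covariates, and each cow left out. Spearman rho, the regression on the first principal component, and the settings for single-gene tests and marker scores were added after seeing the data. The members and the lists were chosen with earlier results of these data known. Named genes are all members, genes of the lists at an unadjusted p below 0.05 or else the 2 of smallest p, the 5 highest and 5 lowest correlates of *PDK4*, the 2 highest of every other member, and neighbours within 2000 bases.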

Additional observations from a re-analysis of the deposited data

Results flagged for a closer look

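In 3 cases a cow lay apart from the rest of its group by more than Dixon's 95% limit, among 40 comparisons in 20 groups, of which chance gives about 1 in 20 groups. In *CPT1A*, high replicate 4 was the highest of its group at 62.9 CPM, the other high cows lying between 17.7 and 32.2 CPM. In *HADHA* the same cow was the lowest of its group at 131 CPM, the others lying between 172 and 203 CPM. In *HADHB*, low replicate 13 was the highest of its group at 182 CPM, the others lying between 130 and 148 CPM. The cause was not tested.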

How the results depend on the processing

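No paired analysis was possible because the high and low groups are different cows and the labels give no pairing between them. In the comparison of high with low cortisol, no member stood at an unadjusted p below 0.05 under any of the 23 alternatives. Over all genes edgeR called 0 (231 at an unadjusted p below 0.05), limma-voom 0 (218) and DESeq2 1 (348), the called gene being *CYP4X1*, which is no member. The log2 fold change of *PDK4* lay between 0.17 and 0.56 and that of *CPT1A* between 0.05 and 0.40. Small fold changes changed sign. With the haemoglobin share as a covariate they were 0.0441 for *CPT2*, 0.00918 for *HADHA*, 0.060 for *ACADVL*, 0.00403 for *ACAA2* and -0.0502 for *SLC25A20*, and with the difference of neutrophil and T cell scores as a covariate -0.0146 for *SLC25A20*. Leaving out each cow in turn gave -0.0682 to 0.0288 for *HADHA*, -0.114 to 0.0377 for *ETFDH* and -0.0162 to 0.0907 for *SLC25A20*.

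The 9 called pairs of members became 5 by Spearman rho, 3 after regression on the first principal component, 6 with upper-quartile factors and 2 to 10 when each cow was left out. *PDK4* with *CPT1A* ranged from 0.879 to 0.918 over the omissions, and was 0.660 after that regression, where *PDK4* with *CPT2* (0.171) and with *ACADVL* (0.687) also changed sign. The cause was not tested. With upper-quartile factors the calls of *PDK4* with *HADHA* (r = -0.657), *HADHB* (-0.627) and *ETFDH* (-0.673) were lost. After regression on the difference of neutrophil and T cell scores 8 pairs were called: *PDK4* with *HADHA* (r = -0.656, adjusted p = 0.0743) and *HADHB* (r = -0.622, adjusted p = 0.0831) were lost, *PDK4* with *ETFDH* (r = -0.722) was called and *PDK4* with *ACADVL* (r = -0.725, adjusted p = 0.0289) was gained. Relations with marker scores past the threshold numbered 0 to 1 over the omissions. The depth of 92 to 547 counts for *PDK4* sets its counting error, and the number of cows limits the precision of every comparison.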
